A study of Danio rerio with 8 samples.

Results

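Gene expression was followed over early gastrulation in zebrafish embryos without Pou5f3, between 30% and 60% epiboly. The comparison rests on 4 of the 8 arrays of the series, chosen by their titles: 2 arrays of MZspg embryos at 60% epiboly, 7 hours after fertilisation, and 2 arrays of MZspg embryos at 30% epiboly, at 4.7 hours. All 12447 probe sets other than the 30 Affymetrix controls were considered. MZspg embryos had neither maternal nor zygotic function of spg, the locus that encodes Pou5f3, and carried its m793 allele. Their strain background is not given by the labels. The other 4 arrays held wild-type (WT) embryos from AB and TÜB crosses, 2 at 60% and 2 at 30% epiboly, which carried no spg mutation by their label. They entered the fit to share its estimate of the spread, and their change is set beside that of MZspg where the genotypes are compared.

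Each array measured total RNA of 120 pooled whole embryos, and the arrays of a group were biological duplicates. Staging started at in vitro fertilisation or, for natural crosses, at the 4-cell stage, and the labels do not say which sample came by which route. The p-values below rest on the spread between duplicates pooled over all 4 groups, WT included, and drawn towards its trend with signal level. The MZspg duplicates at 60% epiboly lay furthest apart, with a median absolute log2 difference of 0.44. In the other groups it was between 0.31 and 0.35. The pooled spread can therefore understate that of MZspg at 60% epiboly. In RNA of whole embryos, fewer cells of a type and less RNA per cell cannot be told apart.

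In epiboly the blastoderm spreads over the yolk cell, and stages are named by the share of the yolk it has covered. Gastrulation begins in this span: the future mesoderm and endoderm turn inward at the margin, the dorsal organizer forms, and the outer enveloping layer and the yolk syncytial layer below the blastoderm spread towards the vegetal pole. In the same hours transcripts laid down in the egg are cleared and zygotic genes take over. Pou5f3 is a POU-domain factor related to mammalian Oct4 that acts with Nanog and SoxB1 factors in the activation of the zygotic genome. MZspg embryos are known for slowed epiboly, dorsalised pattern and missing endoderm. Both genotypes carry the same hours for a stage name. Whether the MZspg embryos had covered the named share of the yolk by then was not tested.

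The deposited values were linear probe set signals. The lowest signal (1.99) and the highest (7818.7) were the same on all 8 arrays, and the median filled probe set had 67.1 or 67.2 on each. Exact signals also recurred between arrays, such as 1976.4 for krt5 in WT at 60% and for sf3b2 in WT at 30% epiboly. The distribution of signals, and not only its range, had therefore been made alike between arrays. A change is relative to the other probe sets of an array. Some cells of the table were empty, between 15.2% and 20.2% of the probe sets on the 4 MZspg arrays and between 14.98% and 22.4% on the 4 WT arrays. Replicate 2 of MZspg at 60% epiboly had the most empty cells of the MZspg arrays and a geometric mean of 736.4 over 18 spike-in probe sets, which report control RNA added in the laboratory. That mean lay between 79.9 and 189.9 on the other 3 MZspg arrays, and WT replicate 2 at 60% epiboly had 592.1. Replicates correlated at 0.921 at 60% and 0.935 at 30% epiboly in MZspg, and at 0.952 and 0.951 in WT (log2 signals across tested probe sets). The targeted gene, pou5f3, was measured on all arrays: its signal was 1268 and 891 in MZspg at 60% epiboly and 1292 and 1327 in MZspg at 30%, against 2957 and 2214 in WT at 60% and 2849.9 and 3166 in WT at 30%. All 4 MZspg signals lay below all 4 WT signals, while the MZspg stages did not differ past the threshold (log2 change -0.299, SE 0.228, adjusted p = 0.333).

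Of the 7375 probe sets bright enough to be tested, 2405 differed between the stages in MZspg, or 32.6%. At 60% epiboly 1022 were higher than at 30% (13.9%) and 1383 were lower (18.8%). These calls come from limma at a Benjamini-Hochberg adjusted p under 0.05, on log2(signal + 9), and every log2 change below is 60% minus 30% epiboly on that scale, which understates the change of dim genes. Counted by gene, with the brightest probe set of each, 653 of 5219 genes were higher (12.5%) and 947 were lower (18.1%). The median change was 1.62 among the called probe sets that were higher and -1.52 among those that were lower, with a median standard error of 0.375 over all tested probe sets. A change of at least 3 was seen for 83 higher and 27 lower probe sets. In all 1022 higher and all 1383 lower probe sets the signals of the 2 stages did not overlap. A called gene described below as brighter or lower on both arrays of a stage therefore has no support beyond its call. The signals at 30% epiboly lay under the level of the filter (41.0) on both arrays for 381 of the higher probe sets, and those at 60% epiboly on both arrays for 505 of the lower ones. Probe sets needed that level on at least 2 arrays to be tested. Some reached it only on the 2 MZspg arrays of 60% epiboly. Among them were pax6a, her2, tbx6, dlb, apobb.1, fabp1b.1, apoa2, slc27a2a, zeb2a, pdgfaa and angptl4. For these the filter left no direction but higher, and those on a gene list still count in its shares.

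**Figure D1:**
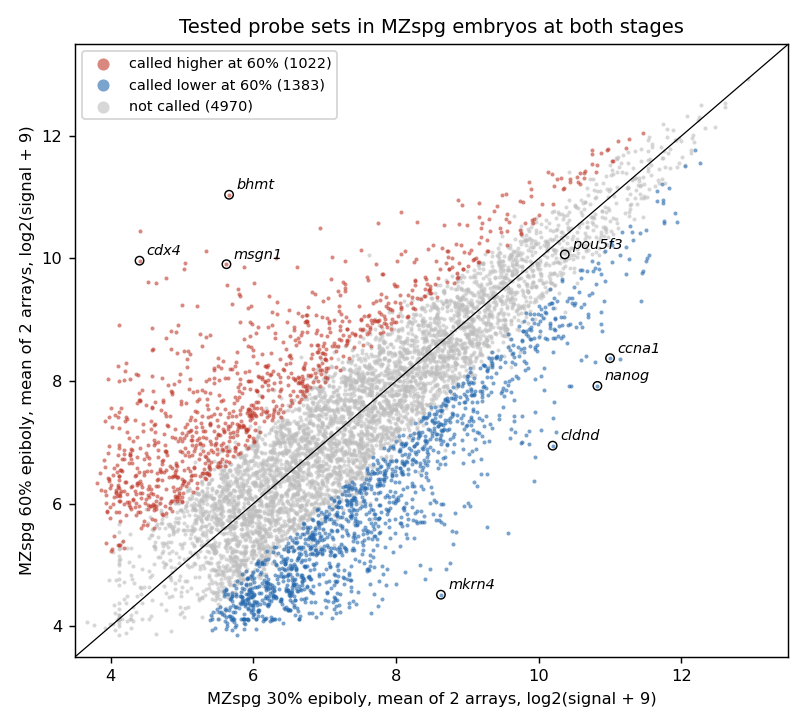
Mean log2(signal + 9) of each tested probe set in MZspg at 60% epiboly (vertical axis, 2 arrays) against 30% epiboly (horizontal axis, 2 arrays). Red points are the 1022 probe sets called higher, blue points the 1383 called lower and grey points those not called, and the line marks equal means. cdx4, bhmt and msgn1 lie far above the line, cldnd and mkrn4 far below it, and pou5f3 close to it.

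The size of these counts rested on replicate 2 of both stages. Without replicate 2 at 60% epiboly 1057 probe sets were called, and without replicate 2 at 30% epiboly 791, against 2467 and 2007 without replicate 1 of the same stages. Within the arrays of low spike-in level, which leaves out replicate 2 of 60% epiboly in both genotypes, 688 probe sets were called, 349 higher and 339 lower. The part of staging or of other differences between the duplicates was not tested. Called in each of the 8 fits that leave out 1 array were 341 higher and 337 lower probe sets. The members described below with their signals are among those unless the array that ends the call is named, and for each gene list the number that stayed called in all 8 fits is given as well. The plot of calls with each array left out shows the same counts.

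**Figure D2:**
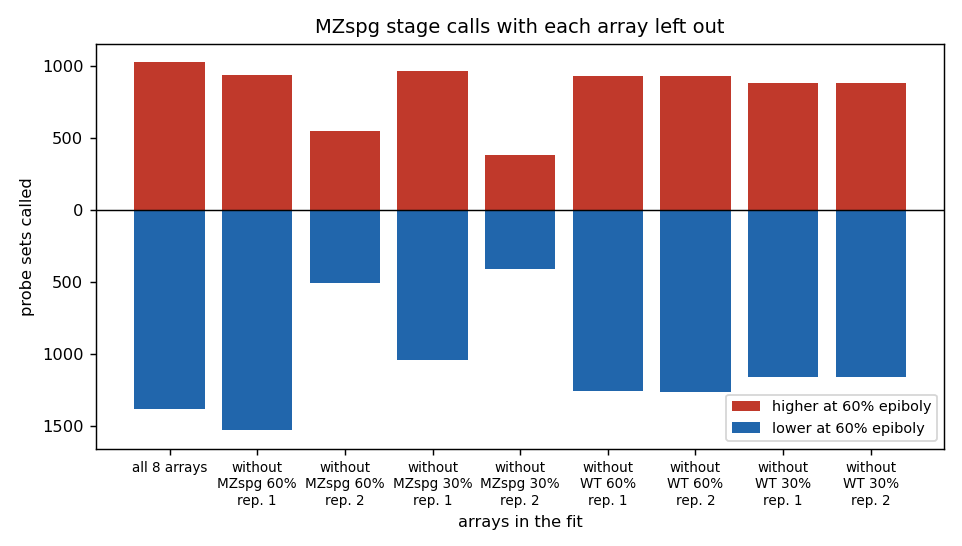
Probe sets called in MZspg between 60% and 30% epiboly with all 8 arrays and with each array left out in turn. Red bars above 0 are probe sets higher at 60% epiboly and blue bars below 0 are lower ones, and the shortest bars are those without replicate 2 of MZspg at either stage (1057 and 791 in all).

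The largest rises were measured for cdx4, bhmt and apoa1a. cdx4, a caudal-type homeobox factor of the posterior body, had a signal of 605 and 1614 at 60% epiboly, against 16.8 and an empty cell at 30% epiboly. It was near the bottom of the range at 30% and bright at 60% epiboly (log2 change 5.56, SE 0.597, adjusted p = 0.000414). bhmt, which encodes betaine-homocysteine methyltransferase, an enzyme of methionine metabolism, had 1387 and 3166 at 60% epiboly, against 84.6 and 18.2 at 30% epiboly (log2 change 5.38, SE 0.588, adjusted p = 0.000427). apoa1a, the main apolipoprotein of high-density lipoprotein, had 484 and 1225 at 60% epiboly, against 30.5 and 6.53 at 30% epiboly (log2 change 4.98, SE 0.518, adjusted p = 0.000414). In these 3 genes both signals at 60% epiboly were far above both at 30%, and replicate 2 gave the larger contrast. sp5l, an Sp-family target of Wnt signalling, had 1118 and 1080.4 at 60% epiboly, against 102 and 5.804 at 30% epiboly (log2 change 4.77, SE 0.784, adjusted p = 0.00193). msgn1, which drives the presomitic mesoderm programme, had 849 and 1064 at 60% epiboly, against 122 and 9.52 at 30% epiboly (log2 change 4.29, SE 0.685, adjusted p = 0.00173). At 30% epiboly both of these differed widely between the duplicates, with the higher signal on replicate 1, and no signal reached those of 60% epiboly. aldh1a2, which makes retinoic acid, had 459.8 and 487 at 60% epiboly, against 44.99 and an empty cell at 30% epiboly (log2 change 3.98, SE 0.515, adjusted p = 0.000766).

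The other places among the 15 largest rises were held by genes of several kinds. krt17, a keratin, had 490.0 and 1879.6 at 60% epiboly, against 53.8 and an empty cell at 30% epiboly (log2 change 4.88, SE 0.705, adjusted p = 0.00118). anxa1c, an annexin, had 241 and 922 at 60% epiboly, against 8.22 and an empty cell at 30% epiboly (log2 change 4.804, SE 0.549, adjusted p = 0.000501). Both were dim or empty at 30% epiboly and brighter on replicate 2 at 60%. The keratin krt99 and the annexin anxa1a rose by 4.14 and 3.995. tfa, which encodes the iron carrier transferrin, had 224 and 415 at 60% epiboly, against 11.3 and 7.89 at 30% epiboly (log2 change 4.08, SE 0.417, adjusted p = 0.000414), and pck2, the gene of mitochondrial phosphoenolpyruvate carboxykinase, rose by 4.02. zeb2a is a zinc finger repressor known for its part in epithelial-mesenchymal transitions. It had 358 and 587 at 60% epiboly, against 11.3 and 19.04 at 30% epiboly (log2 change 4.29, SE 0.377, adjusted p = 0.000208). btr30, a TRIM-type gene, rose by 4.900, and znrf2a, a RING-type ubiquitin ligase gene, by 3.97. All 15 stayed called with each array left out.

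The largest falls were of transcripts bright at 30% epiboly. mkrn4, a makorin-type zinc finger gene, had 21.1 and an empty cell at 60% epiboly, against 354 and 423 at 30% epiboly (log2 change -4.12, SE 0.471, adjusted p = 0.000501). inka1a, an Inka-box gene, had 44.3 and 11.1 at 60% epiboly, against 417 and 431 at 30% epiboly (log2 change -3.73, SE 0.445, adjusted p = 0.00065). dctpp1, whose enzyme degrades dCTP, had 181 and 26.97 at 60% epiboly, against 742 and 1273 at 30% epiboly (log2 change -3.57, SE 0.593, adjusted p = 0.002). The duplicates at 60% epiboly lay far apart in dctpp1 and were both low in mkrn4 and inka1a. klf2a, a Krüppel-like factor, had 10.3 and 8.89 at 60% epiboly, against 132 and 276 at 30% epiboly (log2 change -3.43, SE 0.408, adjusted p = 0.00065). cldnd, a claudin gene of the early embryo, had 91.4 and 142 at 60% epiboly, against 893 and 1514 at 30% epiboly (log2 change -3.25, SE 0.351, adjusted p = 0.000414). cth1, a CCCH-type zinc finger gene, had 169 and 107 at 60% epiboly, against 1047 and 1389 at 30% epiboly (log2 change -3.08, SE 0.307, adjusted p = 0.000407). All signals of these 6 genes at 60% epiboly lay below those at 30%, which the rule that chose them required. Changes between -3.23 and -2.98 were measured for higd1a, si:dkey-24p1.6, zgc:113424, wdr21, ctsz, stimate, mettl5, pttg1ipb and tbp. Of these, ctsz encodes a lysosomal cathepsin, mettl5 a methyltransferase of ribosomal RNA, and tbp the TATA-binding protein, which had 92.4 and 29.7 at 60% epiboly, against 309 and 755 at 30% epiboly. All 15 stayed called with each array left out.

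**Figure D3:**
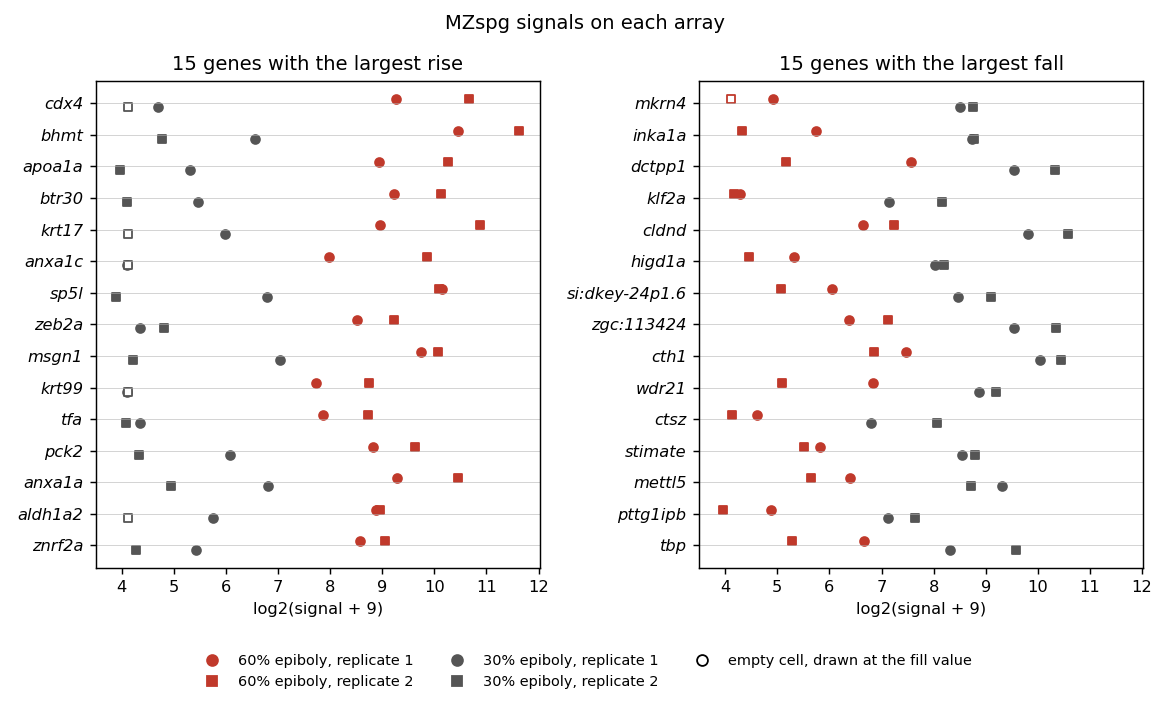
log2(signal + 9) on each MZspg array for the 15 genes with the largest rise (left) and the 15 with the largest fall (right). Red symbols are 60% and grey symbols 30% epiboly, circles are replicate 1 and squares replicate 2, and an open symbol is an empty cell drawn at its fill value. The stages do not overlap for any of these genes, which the rule that chose them required.

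The 25 gene lists with at least 12 tested members differed in how many members changed, and the plot of gene lists sets each beside the shares over all genes, 12.5% higher and 18.1% lower.

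**Figure D4:**
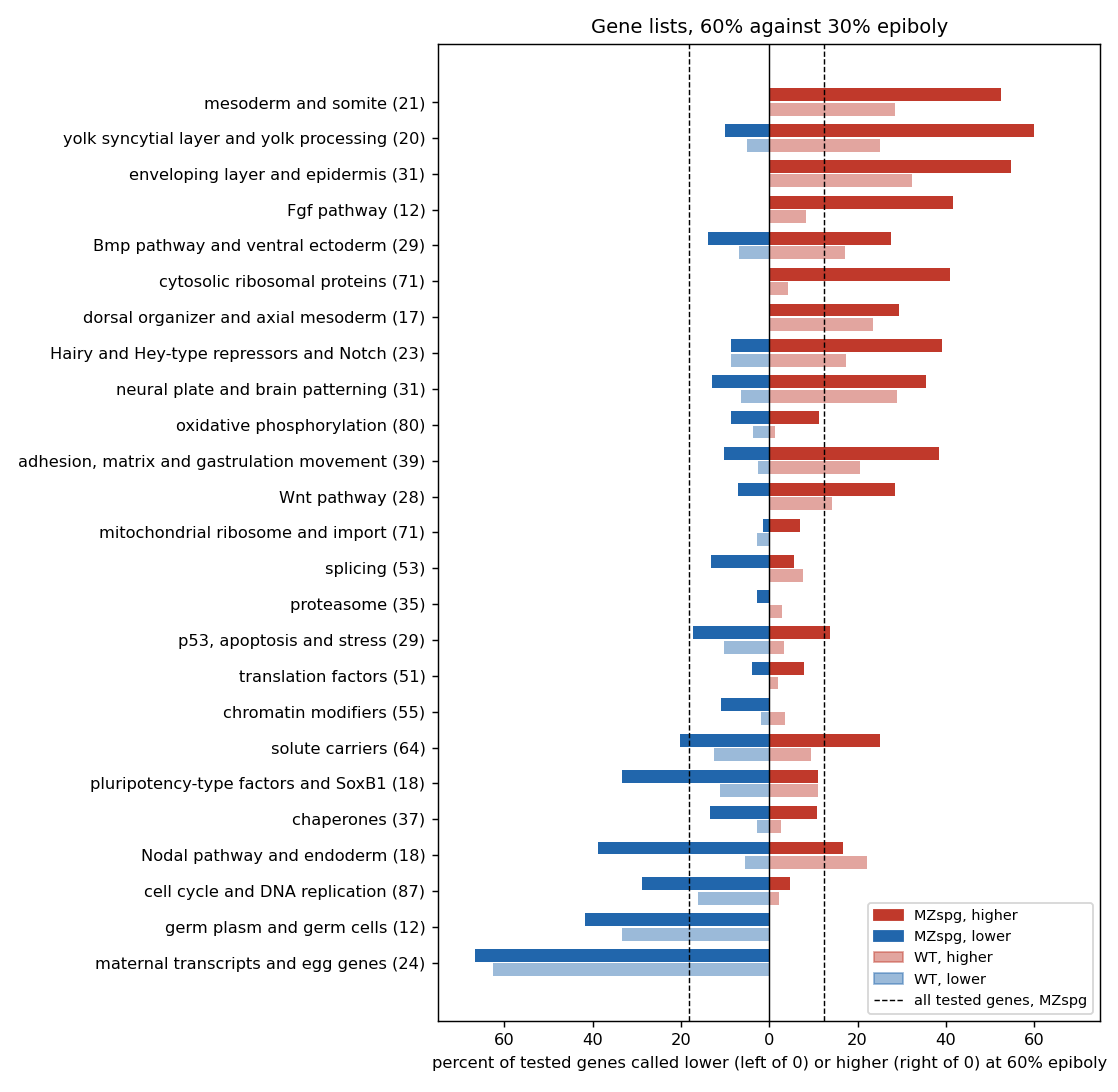
Percent of the tested members of each gene list called higher (right of 0) or lower (left of 0) at 60% than at 30% epiboly, dark bars in MZspg and pale bars in WT, with the number of tested members in brackets. Dashed lines mark the shares of all tested genes in MZspg, 12.5% higher and 18.1% lower. Lists run from the highest median change in MZspg at the top to the lowest at the bottom, from mesoderm and somite to maternal transcripts.

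Among pluripotency-type factors the share of lower members was above that of all genes, and the share of higher members near it. Of 19 genes of this list on the array 18 were tested. Of these, 6 were lower (33.3%, against 18.1% of all genes) and 2 higher (11.1%, against 12.5%). The median change was -0.12, where all tested genes had -0.14. It was above 0 with a stricter filter (0.03), with a lower fill value (0.05) and with a spike-in term (0.10). nanog, the homeobox factor that acts beside Pou5f3 in genome activation, had 326 and 166 at 60% epiboly, against 1335 and 2429 at 30% epiboly (log2 change -2.901, SE 0.342, adjusted p = 0.000633). nanog and klf2a were the lower members that stayed called with each array left out. sox19b, the maternal SoxB1 factor, had 17.02 and 14.4 at 60% epiboly, against 42.6 and 171 at 30% epiboly (log2 change -1.97, SE 0.544, adjusted p = 0.0182). eomesa, a maternal T-box factor, had 70.2 and 17.8 at 60% epiboly, against 149 and 291 at 30% epiboly (log2 change -2.24, SE 0.511, adjusted p = 0.00782). Both were low at 60% epiboly, and both lost the call without replicate 2 of either stage, where the highest adjusted p was 0.19 for sox19b and 0.0807 for eomesa. The other lower members were mycb (log2 change -1.12) and tdgf1 (-1.04), the co-receptor of Nodal ligands, and 2 lower members were left without replicate 2 of 60% or of 30% epiboly. The 2 higher members were Krüppel-like factors. klf17, a factor of the outer epithelium, had 94.98 and 102 at 60% epiboly, against 22.3 and an empty cell at 30% epiboly (log2 change 2.204, SE 0.365, adjusted p = 0.00199). klf2b had 46.4 and 158 at 60% epiboly, against 11.6 and 11.8 at 30% epiboly (log2 change 2.21, SE 0.475, adjusted p = 0.00594). The changes of sox3 (0.73), sox19a (0.44) and foxd3 (0.03) did not pass the threshold. No fold is given for sox2, the neural SoxB1 factor, whose cells were empty in MZspg apart from a signal of 8.92 on replicate 2 at 60% epiboly.

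Most tested transcripts of the egg fell. On the list of maternal transcripts and egg genes 16 of 24 tested members were lower, or 66.7% against 18.1% of all genes, none was higher, and the median change was -1.51. ccna1, the cyclin of early cleavage divisions, had 404 and 257 at 60% epiboly, against 1479 and 2805 at 30% epiboly (log2 change -2.63, SE 0.357, adjusted p = 0.000939). slbp2, a histone stem-loop binding protein of the egg, had 19.1 and 22.8 at 60% epiboly, against 138 and 244 at 30% epiboly (log2 change -2.69, SE 0.39, adjusted p = 0.00118). pabpn1l, an embryonic poly(A)-binding protein, had 59.8 and 49.7 at 60% epiboly, against 302 and 494 at 30% epiboly (log2 change -2.64, SE 0.36, adjusted p = 0.000939). All 3 were several times brighter on both arrays of 30% epiboly. ccnb1, the mitotic cyclin B, had 989 and 774 at 60% epiboly, against 2310.4 and 3444 at 30% epiboly (log2 change -1.68, SE 0.248, adjusted p = 0.00122), and wee2, an oocyte kinase that inhibits Cdk1, fell (log2 change -2.68). The linker histone of the egg, h1m, had 831 and 467 at 60% epiboly, against 2140.4 and 3519 at 30% epiboly (log2 change -2.12, SE 0.316, adjusted p = 0.00126). cpeb1b and tdrd5, regulators of stored and germline RNA, fell as well (log2 changes -1.78 and -1.93). The claudin cldnd is also a member, and these 9 genes stayed called with each array left out. buc, which organises the Balbiani body of the oocyte, larp6a, mos, btg4, dnd1, bmp15 and nobox were called with all arrays, between -2.51 for btg4 and -1.105 for nobox, and each lost the call without at least 1 MZspg array. For btg4, an adaptor of deadenylation, the highest adjusted p was 0.128, without replicate 1 of 60% or replicate 2 of 30% epiboly. The list kept 9 lower calls when replicate 2 of 30% epiboly was left out. zar1, an RNA-binding factor of the oocyte, measured 0.14 (adjusted p = 0.794) and ybx1 0.18 (adjusted p = 0.561).

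Some germ plasm genes fell. Of 12 tested members 5 were lower (41.7%), none was higher, and the median change was -1.03. nanos3, a translational repressor needed in primordial germ cells, had 46.3 and 56.3 at 60% epiboly, against 180.4 and 202 at 30% epiboly (log2 change -1.73, SE 0.351, adjusted p = 0.00458). tdrd7a, a Tudor-domain gene of germ granules, had 54.2 and 57.7 at 60% epiboly, against 211 and 248 at 30% epiboly (log2 change -1.88, SE 0.383, adjusted p = 0.00478). Both were lower on each array of 60% epiboly, and with h1m they were the 3 members called with each array left out. dnd1, an RNA-binding protein that protects germ cell transcripts, had 239 and 156 at 60% epiboly, against 449 and 529 at 30% epiboly (log2 change -1.29, SE 0.385, adjusted p = 0.0248), a call lost without replicate 2 of 60% and without either replicate of 30% epiboly (adjusted p up to 0.139). ddx4, the vasa helicase gene, measured -0.92 (adjusted p = 0.0671), and dazl -1.05 (adjusted p = 0.0522). Summed over 5 germ cell markers on the array (ddx4, nanos3, dazl, dnd1 and tdrd7a), signals were 581.7 and 414.6 at 60% epiboly, against 1188 and 1386 at 30%.

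Mesoderm and somite genes had the highest median change of the lists with at least 12 tested members, 1.59. Of 21 tested members 11 were higher (52.4%) and none was lower, and 7 stayed called with each array left out: cdx4, aldh1a2, foxc1a, msgn1, tbx16l, tbx6 and mespaa. tbx16l, a T-box factor of the paraxial mesoderm, had 390.0 and 458 at 60% epiboly, against 72.6 and 12.4 at 30% epiboly (log2 change 3.37, SE 0.547, adjusted p = 0.00189). foxc1a, a forkhead factor of the somites, had 123 and 296 at 60% epiboly, against 15.7 and an empty cell at 30% epiboly (log2 change 3.28, SE 0.468, adjusted p = 0.00117). tbx6, a T-box factor of the presomitic mesoderm, had 57.5 and 178 at 60% epiboly, against 10.2 and an empty cell at 30% epiboly (log2 change 2.61, SE 0.449, adjusted p = 0.00224). mespaa, which acts in somite boundary formation, had 83.9 and 74.2 at 60% epiboly, against 14.6 and an empty cell at 30% epiboly (log2 change 2.12, SE 0.368, adjusted p = 0.00234). Replicate 2 of 30% epiboly was empty for foxc1a, tbx6 and mespaa, and replicate 1 was dim in all 3. hes6, eve1, dlc and pcdh8 were called with all arrays but not without replicate 2 of 30% epiboly. eve1 is a homeobox gene of the ventral and posterior margin. It had 342 and 239 at 60% epiboly, against 137 and 6.07 at 30% epiboly (log2 change 2.65, SE 0.862, adjusted p = 0.0356). Replicate 1 of 30% epiboly lay much closer to 60% epiboly than replicate 2 did. With 1 array left out the change of eve1 ran from 1.02 to 4.29. Its call was lost without either replicate of 60% epiboly, as well as without replicate 2 of 30% epiboly. Without that array 7 members were called, without replicate 2 of 60% epiboly 8, and among probe sets with values on all arrays 4. Other early mesoderm genes did not pass the threshold: tbxta, the brachyury gene of margin and notochord, measured 1.06 (adjusted p = 0.184) and tbx16 -0.04 (adjusted p = 0.919).

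On the list of the dorsal organizer and axial mesoderm 5 of 17 tested members were higher (29.4%), none was lower, and the median was 0.48. otx2b, a homeobox factor of anterior mesendoderm and forebrain, had 799 and 705 at 60% epiboly, against 80.7 and 18.2 at 30% epiboly (log2 change 3.94, SE 0.491, adjusted p = 0.000711). foxa2, the forkhead factor of axial mesoderm and endoderm, had 183 and 314 at 60% epiboly, against 47.7 and 24.5 at 30% epiboly (log2 change 2.52, SE 0.438, adjusted p = 0.00234). hhex, a homeobox gene of the dorsal yolk syncytial layer and endoderm, had 113 and 124 at 60% epiboly, against 18.4 and 12.8 at 30% epiboly (log2 change 2.38, SE 0.348, adjusted p = 0.0012). ntd5 rose by 3.42. These 4 were brighter on both arrays of 60% epiboly and stayed called with each array left out. admp, a Bmp-type ligand of the organizer, rose by 1.37 but was not called in 4 of the 8 fits that leave out an array. Organizer genes already bright at 30% epiboly did not pass the threshold, among them chrd, the Bmp antagonist, with 250.3 and 109 at 60% epiboly, against 273 and 162 at 30% epiboly (log2 change -0.33, SE 0.423, adjusted p = 0.581), and gsc (-0.39) and noto (-0.59). Leaving out replicate 2 of 30% epiboly gave a median of -0.01, with 4 members higher, and testing only probe sets with values on all arrays gave 0.02, with 3 higher.

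Among Nodal pathway and endoderm genes 7 of 18 tested members were lower (38.9%) and 3 were higher (16.7%), with a median of -0.39. The members that fell included ligands and receptors. gdf3, the maternal Vg1-type ligand that pairs with Nodal, had 415 and 265 at 60% epiboly, against 1360.0 and 1911 at 30% epiboly (log2 change -2.25, SE 0.283, adjusted p = 0.000711). acvr1ba, a type I Activin receptor gene, had 49.1 and 18.003 at 60% epiboly, against 233 and 282 at 30% epiboly (log2 change -2.74, SE 0.531, adjusted p = 0.00379). apela, the peptide ligand of the apelin receptors, had 214 and 154 at 60% epiboly, against 701 and 729.5 at 30% epiboly (log2 change -1.92, SE 0.336, adjusted p = 0.00238). These 3 were brighter on both arrays of 30% epiboly, and they stayed called with each array left out. ndr1, a Nodal ligand, had 9.51 and 12.8 at 60% epiboly, against 68.3 and 36.01 at 30% epiboly (log2 change -1.55, SE 0.373, adjusted p = 0.00996), and lost the call without replicate 1 of 30% epiboly (adjusted p = 0.0763). The chemokine receptor cxcr4a (-1.02), eomesa and tdgf1 completed the lower members. The higher members were foxa2, gata6 (2.06), a GATA factor of endoderm and yolk syncytial layer, and the apelin receptor aplnra (1.16), of which foxa2 stayed called throughout. The endoderm factor sox32 measured 0.49 (adjusted p = 0.409) and mixl1 -0.97 (adjusted p = 0.238). With replicate 2 of 60% or of 30% epiboly left out, 4 members were lower and 1 was higher. The median was -0.79 without replicate 1 and -0.12 without replicate 2 of 60% epiboly, and it was above 0 with a stricter filter (0.14), with complete probe sets only (0.10) and with a spike-in term (0.02).

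In the Bmp pathway and ventral ectoderm the share of higher members was above that of all genes, and the share of lower members below it. Of 29 tested members 8 were higher (27.6%, against 12.5% of all genes) and 4 lower (13.8%, against 18.1%), with a median of 0.55. smad6a, an inhibitory Smad, had 84.02 and 97.4 at 60% epiboly, against 9.87 and 6.36 at 30% epiboly (log2 change 2.55, SE 0.355, adjusted p = 0.00103). smad6a and klf2b were the higher members that stayed called with each array left out. smad7, the other inhibitory Smad, had 255 and 269.7 at 60% epiboly, against 105 and 83.98 at 30% epiboly (log2 change 1.399, SE 0.33, adjusted p = 0.00916), and id3, a target that blocks bHLH factors, had 373 and 323 at 60% epiboly, against 156 and 77.1 at 30% epiboly (log2 change 1.58, SE 0.39, adjusted p = 0.0113). Both lost the call without replicate 2 of 30% epiboly, with adjusted p of 0.0723 and 0.115. Where a group had no signal, the fold is a bound for the geometric mean of the other group's 2 signals. It is taken against 24.6, the 95th percentile of signals whose duplicate cell was empty, and the dimmer array alone gives less. bmper, an extracellular Bmp modulator, was empty on both arrays of 30% epiboly and had 34.5 and 106 at 60%, at least 2.46-fold higher (adjusted p = 0.0073), a call lost without replicate 2 of 60% epiboly (adjusted p = 0.0621). msx1b, eve1 and id2a were the other higher members, and id2a lost the call whichever array was left out. bmp7a, a ligand, had 9.43 and an empty cell at 60% epiboly, against 32.02 and 53.7 at 30% epiboly (log2 change -1.505, SE 0.478, adjusted p = 0.0323). bmpr1ba, a type I receptor, had 12.8 and 10.4 at 60% epiboly, against 40.9 and 60.4 at 30% epiboly (log2 change -1.52, SE 0.393, adjusted p = 0.0136). smad5, the transducer, had 254 and 237 at 60% epiboly, against 411 and 618 at 30% epiboly (log2 change -1.01, SE 0.342, adjusted p = 0.0414). All 3 were lower at 60% epiboly with all arrays, and all 3 lost the call without replicate 2 of 60% or of 30% epiboly. bmp7a also lost it without MZspg replicate 1 of 60% epiboly and without either WT replicate of 30% epiboly. klf2a was the fourth lower member. bmp2b (-0.38) and bmp4 (0.55) did not pass the threshold, nor did the ventral homeobox genes vox (0.68) and ved (1.04). The counts were 4 higher and 1 lower without replicate 2 of 60% epiboly, and 3 and 1 without replicate 2 of 30% epiboly, where the median was 0.18. Without either WT replicate of 30% epiboly 2 members were lower.

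Some Fgf response genes rose, and the ligand measured here did not pass the threshold. Of 12 tested members 5 were higher (41.7%), none was lower, and the median was 0.71. dusp6, a phosphatase induced by Fgf signalling that dampens ERK, had 515 and 664 at 60% epiboly, against 159.6 and 61.6 at 30% epiboly (log2 change 2.44, SE 0.444, adjusted p = 0.00286). It was the member that stayed called with each array left out. spred1, an inhibitor of Ras signalling, had 284 and 252 at 60% epiboly, against 93.2 and 55.8 at 30% epiboly (log2 change 1.76, SE 0.367, adjusted p = 0.00517), a call lost without replicate 2 of 30% epiboly (adjusted p = 0.0553). etv4, an Ets-type effector, had 514 and 494 at 60% epiboly, against 293 and 132 at 30% epiboly (log2 change 1.31, SE 0.36, adjusted p = 0.0176). fgfr4, a receptor, rose by 1.24, and ier5 by 0.66. The calls of etv4, fgfr4 and ier5 were lost without replicate 2 of either stage. fgfr4 also lost it without MZspg replicate 1 of 60% epiboly, and among the fits that leave out 1 array ier5 was called only in that one. fgf8a, the ligand of the margin, measured -0.45 (adjusted p = 0.399). The count was 2 without replicate 2 of 60% epiboly and 1 without replicate 2 of 30%.

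Some Wnt receptors and targets were higher at 60% epiboly. Of 28 tested members 8 were higher (28.6%) and 2 lower (7.14%), with a median of 0.11, and cdx4, sp5l, fzd10, csnk1da and fzd7a stayed called with each array left out. fzd10, a Frizzled receptor, had 159 and 284 at 60% epiboly, against 39.9 and 8.31 at 30% epiboly (log2 change 2.93, SE 0.497, adjusted p = 0.00215). fzd7a, a Frizzled receptor bright at both stages, had 730.3 and 930.1 at 60% epiboly, against 327 and 336 at 30% epiboly (log2 change 1.29, SE 0.258, adjusted p = 0.00436). csnk1da, a casein kinase, had 1002 and 1384 at 60% epiboly, against 487 and 263 at 30% epiboly (log2 change 1.69, SE 0.326, adjusted p = 0.00372). ror2, a receptor tyrosine kinase of the planar polarity branch, fell, with 119.7 and 45.2 at 60% epiboly, against 346 and 331 at 30% epiboly (log2 change -2.06, SE 0.437, adjusted p = 0.00573). fzd8b (2.002), prickle1b (1.51) and sp5a (1.44) rose and dvl3a (-1.38) fell with all arrays, but not without replicate 2 of 30% epiboly, and dvl3a kept the call in 1 of the 8 fits that leave out an array. The beta-catenin genes ctnnb1 (-0.13) and ctnnb2 (0.03) did not pass the threshold. Leaving out replicate 2 of 30% epiboly gave 5 higher members and 1 lower.

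Neural patterning genes rose in part. Of 31 tested members of 67 on the array, 11 were higher (35.5%) and 4 lower (12.9%), with a median of 0.47, and 6 of the higher and 1 of the lower stayed called with each array left out. pax6a, the paired-box factor of eye and forebrain, had 91.01 and 84.96 at 60% epiboly, against 4.13 and an empty cell at 30% epiboly (log2 change 2.68, SE 0.333, adjusted p = 0.000711). It reached the level of the filter only on those 2 arrays of 60% epiboly, as did dlb, so neither could be called lower. All 4 WT cells of pax6a, as of her2 below, held the fill value, so WT added no spread to their standard errors. irx1b, an Iroquois factor, had 148 and 116 at 60% epiboly, against 21.6 and 14.6 at 30% epiboly (log2 change 2.38, SE 0.376, adjusted p = 0.00162). sox11a, a SoxC factor, had 198 and 298 at 60% epiboly, against 78.9 and 49.3 at 30% epiboly (log2 change 1.81, SE 0.354, adjusted p = 0.00389), and of its 2 other tested probe sets 1 was called higher and 1 had a lower signal at 60% epiboly without passing the threshold. dlb, a Delta ligand, had 144 and 47.4 at 60% epiboly, against 9.21 and an empty cell at 30% epiboly (log2 change 2.39, SE 0.447, adjusted p = 0.00329). otx2b and her9, a Hairy-type repressor with 204 and 466 at 60% epiboly, against 66.6 and 29.6 at 30% epiboly (log2 change 2.56, SE 0.467, adjusted p = 0.00295), were the remaining stable members. her5, a Hairy-type repressor known from the midbrain-hindbrain boundary and mesendoderm, fell, with 34.8 and 12.1 at 60% epiboly, against 150.1 and 339 at 30% epiboly (log2 change -2.95, SE 0.521, adjusted p = 0.00248). dla, zic2a, notch3, gli2a and gbx1 rose, and gmnn, sox19b and otx1 fell, and each of these 8 lost the call in at least 1 fit that leaves out an array. With replicate 2 of 60% or of 30% epiboly left out, 6 members were higher, with 2 and 1 lower, and among probe sets with values on all arrays 5 were higher.

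The list of Hairy and Hey-type repressors and Notch genes, which shares her9, her5, dla, dlb and notch3 with the neural list, had 9 of 23 tested members higher (39.1%) and 2 lower (8.70%), with a median of 0.48. her8a had 1025 and 449.9 at 60% epiboly, against 165 and 68.2 at 30% epiboly (log2 change 2.57, SE 0.53, adjusted p = 0.005), a call lost without replicate 2 of 30% epiboly (adjusted p = 0.0545). her2 had 41.4 and 69.4 at 60% epiboly, against 11.9 and an empty cell at 30% epiboly (log2 change 1.73, SE 0.351, adjusted p = 0.00473), and lost the call without the same array (adjusted p = 0.0529). tle3b, a Groucho-type co-repressor, had 215 and 236 at 60% epiboly, against 70.2 and 79.8 at 30% epiboly (log2 change 1.48, SE 0.328, adjusted p = 0.00683), whereas its paralogue tle3a fell (log2 change -1.33), a call lost without replicate 2 of either stage (adjusted p up to 0.243). With her9 and dlb, tle3b made up the 3 higher members called with each array left out. Without replicate 2 of 60% epiboly 6 members were higher and 1 lower, and without replicate 2 of 30% epiboly 3 and 1. Of 14 Hox and posterior genes on the array cdx4 was the member bright enough to be tested.

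On the list of the enveloping layer and epidermis 17 of 31 tested members were higher (54.8%), none was lower, and the median was 1.09. pkp1b, a plakophilin of desmosomes, had 282 and 461 at 60% epiboly, against 29.2 and 6.29 at 30% epiboly (log2 change 3.94, SE 0.559, adjusted p = 0.00113). evplb and ppl, the cornified-envelope proteins envoplakin and periplakin, rose by 2.53 and 2.25. krt5, a basal keratin, had 397 and 608 at 60% epiboly, against 109.6 and 17.4 at 30% epiboly (log2 change 3.16, SE 0.55, adjusted p = 0.00234). grhl1, a grainyhead-type factor of epithelia, had 105 and 95.8 at 60% epiboly, against 22.8 and 7.302 at 30% epiboly (log2 change 2.26, SE 0.394, adjusted p = 0.00234). dspa, a desmoplakin, had 311 and 152 at 60% epiboly, against 47.3 and 13.6 at 30% epiboly (log2 change 2.67, SE 0.523, adjusted p = 0.00393). capn9, a calpain of the enveloping layer, had 723 and 869.5 at 60% epiboly, against 287 and 119 at 30% epiboly (log2 change 2.04, SE 0.379, adjusted p = 0.00317). In each of these genes both arrays of 60% epiboly were brighter, and 11 members stayed called with each array left out. Keratins already bright at 30% epiboly did not pass the threshold. krt4 had 1530.5 and 1126 at 60% epiboly, against 1176 and 428 at 30% epiboly (log2 change 0.88, SE 0.385, adjusted p = 0.1). krt8 had 2666 and 2760.5 at 60% epiboly, against 2234 and 825 at 30% epiboly (log2 change 0.99, SE 0.369, adjusted p = 0.0581), and replicate 2 of 30% epiboly was the low array for both. The summed signal of 8 enveloping layer markers was 6004 and 6866 at 60% epiboly, against 4024 and 1521 at 30%, and the part of the amount of this layer in the result was not tested. Without replicate 2 of 30% epiboly 12 members were called and without replicate 2 of 60% epiboly 15.

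Genes of the yolk syncytial layer had the largest share of higher members among lists with at least 12 tested. Of 20 tested members 12 were higher (60%) and 2 lower (10%), and the median was 1.45. Of the higher members, apobb.1, fabp1b.1 and apoa2 reached the level of the filter only on the 2 MZspg arrays of 60% epiboly. They could not be called lower, and the share and its rank count them. apobb.1, an apolipoprotein B, had 67.03 and 371 at 60% epiboly, against 5.26 and an empty cell at 30% epiboly (log2 change 3.43, SE 0.586, adjusted p = 0.00219). fabp1b.1, a fatty acid binding protein, was empty on both arrays of 30% epiboly and had 85.8 and 688 at 60%. Their geometric mean was at least 9.87-fold higher (adjusted p = 0.00245), and replicate 1 alone gives less. fetub, a fetuin, had 261 and 466 at 60% epiboly, against 45.2 and 10.4 at 30% epiboly (log2 change 3.46, SE 0.554, adjusted p = 0.00175). With apoa1a and tfa these were the 5 members called with each array left out, and replicate 2 of 60% epiboly was the brighter array in all 5. apoc2 had 443 and 828 at 60% epiboly, against 125 and 11.1 at 30% epiboly (log2 change 3.57, SE 0.776, adjusted p = 0.00639) and apoc1 had 1384 and 2149 at 60% epiboly, against 871 and 72.1 at 30% epiboly (log2 change 2.698, SE 0.809, adjusted p = 0.0256). Both calls were lost without replicate 2 of either stage, with adjusted p up to 0.0602 for apoc2 and 0.194 for apoc1. apoa2, gata6, afp4, apoeb and slc20a1b were the other higher members. mxtx2, the homeobox factor that specifies the yolk syncytial layer, went the other way, with 8.12 and 16.6 at 60% epiboly, against 62.3 and 258 at 30% epiboly (log2 change -2.72, SE 0.607, adjusted p = 0.00705), a call lost without replicate 2 of 30% epiboly (adjusted p = 0.0783). hnf4a, a nuclear receptor of apolipoprotein genes, measured 0.79 (adjusted p = 0.108). The summed signal of 7 markers of the layer was 850.9 and 2665 at 60% epiboly, against 200.005 and 329.4 at 30%. Without replicate 2 of 60% epiboly 6 members were higher and 1 lower, and without replicate 2 of 30% epiboly 5 and none.

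On the list of adhesion, matrix and gastrulation movement genes the share of higher members was above that of all genes, and the share of lower members below it. Of 39 tested members 15 were higher (38.5%) and 4 lower (10.3%), with a median of 0.19. Among probe sets with values on all arrays 8 of 32 members were higher and 3 lower, and the median was 0.002. cdh2, the neural and mesodermal cadherin, had 883 and 1167 at 60% epiboly, against 128 and 37.4 at 30% epiboly (log2 change 3.69, SE 0.462, adjusted p = 0.000711). lamb1a, a laminin chain, had 274 and 463 at 60% epiboly, against 23.8 and an empty cell at 30% epiboly (log2 change 3.94, SE 0.425, adjusted p = 0.000414). The chemokine cxcl12b had 241 and 684 at 60% epiboly, against 21.6 and 15.4 at 30% epiboly (log2 change 3.93, SE 0.519, adjusted p = 0.000815), while its receptor gene cxcr4a fell (log2 change -1.02), a call lost without replicate 2 of 60% and without either replicate of 30% epiboly (adjusted p up to 0.0726). pdgfaa, a ligand that guides mesendoderm, had 199 and 305 at 60% epiboly, against 38.9 and 11.04 at 30% epiboly (log2 change 3.04, SE 0.439, adjusted p = 0.00118). efnb2b, an ephrin, had 282 and 409.8 at 60% epiboly, against 46.9 and 12.1 at 30% epiboly (log2 change 3.34, SE 0.49, adjusted p = 0.00121), and the Eph receptor epha4a rose by 2.17. With zeb2a these 6 members, all dim at 30% epiboly apart from cdh2, were the 7 higher members called with each array left out. rock2a, mmp9, prickle1b, jam3b, aplnra, marcksa, rhoaa and pcdh8 were called with all arrays, from 2.07 for rock2a to 1.16 for aplnra. Of the lower members, apela, stat3, cxcr4a and msna, apela stayed called throughout. Among the fits that leave out 1 array, msna was called only without MZspg replicate 1 of 60% epiboly. The counts were 10 higher and 1 lower without replicate 2 of 60% epiboly, and 7 and 1 without replicate 2 of 30%.

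Cell cycle genes were called lower more often than higher. Of 87 tested members 25 were lower (28.7%) and 4 higher (4.60%), with a median of -0.43. The cyclins ccna2 and ccnb2 were among the brightest members. ccna2 had 1140.5 and 978 at 60% epiboly, against 2666 and 3353 at 30% epiboly (log2 change -1.49, SE 0.214, adjusted p = 0.00118), and ccnb2 had 465 and 422 at 60% epiboly, against 1489 and 2394 at 30% epiboly (log2 change -2.07, SE 0.283, adjusted p = 0.000955). cdc20, the activator of the anaphase-promoting complex, had 556 and 382 at 60% epiboly, against 1389 and 1524 at 30% epiboly (log2 change -1.64, SE 0.282, adjusted p = 0.00224). Among replication genes, cdc6, a licensing factor, had 227 and 207 at 60% epiboly, against 713 and 831 at 30% epiboly (log2 change -1.79, SE 0.297, adjusted p = 0.00199) and orc1, a subunit of the origin recognition complex, had 195 and 89.97 at 60% epiboly, against 451 and 698 at 30% epiboly (log2 change -2.004, SE 0.384, adjusted p = 0.00361). tyms, which makes thymidylate, fell (log2 change -2.26), as did the survivin gene birc5b (-1.88) and the checkpoint kinase gene chek2 (-1.61). These 8 genes with ccna1, ccnb1, wee2 and gins1 were the 12 lower members called with each array left out. ccnf, a cyclin-F gene, went against the list with 522 and 511 at 60% epiboly, against 168 and 78.7 at 30% epiboly (log2 change 2.07, SE 0.405, adjusted p = 0.00393). cenpe, top2a and e2f4 were the other higher members. pcna, the replication clamp, had 3722 and 3237 at 60% epiboly, against 4676 and 4676 at 30% epiboly (log2 change -0.43, SE 0.147, adjusted p = 0.044), the smallest change called, and it kept the call in 1 of the 8 fits that leave out an array. Without replicate 2 of 60% epiboly 19 members were lower, and without replicate 2 of 30% epiboly 12.

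The ribosomal protein genes that were called rose by small amounts, and their number depended on the fit. Of 71 tested members 29 were higher (40.8%), none was lower, and 62 had a change above 0, with a median of 0.53. rpl5a had 1747 and 2096 at 60% epiboly, against 779.7 and 405 at 30% epiboly (log2 change 1.75, SE 0.305, adjusted p = 0.00234). rplp2 had 1687 and 2607 at 60% epiboly, against 787 and 638 at 30% epiboly (log2 change 1.55, SE 0.289, adjusted p = 0.00317). These were the largest changes of the list and the 2 that stayed called with each array left out. The other called members lay between 0.55 for rpl28 and 1.201 for rpl22. Averaged over the 71 genes, log2(signal + 9) was 11.49 and 11.55 at 60% epiboly, against 11.19 and 10.85 at 30%, so that replicate 2 of 30% epiboly was the lowest array. Without it 2 members were called, and without replicate 2 of 60% epiboly 5. With all 8 arrays 7 were called by eBayes without the trend, 13 with dim probe sets kept and 14 with a spike-in term, and 7 with only the 4 MZspg arrays.

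Other housekeeping lists stayed nearer to the background or below it. Oxidative phosphorylation had 9 of 80 tested members higher (11.2%) and 7 lower (8.75%), and of these sdhdb, a subunit of complex II with 56.9 and 43.9 at 60% epiboly, against 321 and 290.1 at 30% epiboly (log2 change -2.41, SE 0.358, adjusted p = 0.00126), and ndufv1, a complex I subunit with 182 and 161 at 60% epiboly, against 549.9 and 556 at 30% epiboly (log2 change -1.64, SE 0.278, adjusted p = 0.00213), stayed called with each array left out. None of its higher members stayed called with each array left out. The median of the list was 0.28 with all arrays. It was 0.66 without replicate 1 and -0.06 without replicate 2 of 60% epiboly, so its place near the background depended on the arrays. The proteasome had 1 of 35 members lower (psmc3) and none higher, and translation factors 4 of 51 higher and 2 lower, among them the cap-binding protein gene eif4ea (2.07) and the scaffold gene eif4g3a (-2.14). Splicing genes had 3 of 53 higher and 7 lower. sf3b2, a subunit of the U2 particle, had 2058 and 2159.5 at 60% epiboly, against 626 and 858 at 30% epiboly (log2 change 1.51, SE 0.263, adjusted p = 0.00234), while the core particle genes snrpd3 (-1.65) and snrpb (-1.04) fell. The mitochondrial ribosome and import had 5 of 71 higher and 1 lower, chaperones 4 of 37 higher and 5 lower, and p53, apoptosis and stress genes 4 of 29 higher and 5 lower. Chromatin modifiers had 6 of 55 lower and none higher. hmgb2a, a high-mobility-group protein, had 1416 and 523 at 60% epiboly, against 2799 and 2771 at 30% epiboly (log2 change -1.68, SE 0.372, adjusted p = 0.00682) and was the member that stayed called with each array left out. The maintenance DNA methyltransferase gene dnmt1 (-1.11) and suz12a (-2.28) of Polycomb complex 2 fell in the fit of all arrays and not without replicate 2 of 60% or of 30% epiboly.

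Of 64 tested solute carriers 16 were higher (25%), and 13 were lower (20.3%), near the 18.1% of all genes. The median was -0.10 (0.04 without replicate 1 and 0.01 without replicate 2 of 60% epiboly), and 7 of the higher and 3 of the lower stayed called with each array left out. slc39a5, a zinc transporter, had 175 and 186 at 60% epiboly, against 30.4 and 5.58 at 30% epiboly (log2 change 2.98, SE 0.522, adjusted p = 0.00239). slc7a8a, an amino acid transporter, had 771 and 753 at 60% epiboly, against 201 and 107 at 30% epiboly (log2 change 2.31, SE 0.437, adjusted p = 0.00348), and the amino acid transporters slc38a4 and slc38a5b rose by 2.52 and 1.78. slc27a2a, a fatty acid transporter, had 76.6 and 141 at 60% epiboly, against 5.51 and 7.67 at 30% epiboly (log2 change 2.87, SE 0.367, adjusted p = 0.00076). All 4 amino acid and zinc transporters were brighter on both arrays of 60% epiboly. slc16a3b, a lactate transporter, fell with 494 and 201 at 60% epiboly, against 1339 and 1765 at 30% epiboly (log2 change -2.25, SE 0.367, adjusted p = 0.00189). slc46a1, the proton-coupled folate transporter, had 6.46 and 9.48 at 60% epiboly, against 51.3 and 72.7 at 30% epiboly (log2 change -2.05, SE 0.398, adjusted p = 0.00381). slc25a44b, a mitochondrial carrier, was empty on both arrays of 60% epiboly and had 49.8 and 105 at 30%. Against their geometric mean it was at least 2.94-fold lower at 60% (adjusted p = 0.00322). Without replicate 2 of 60% epiboly 10 members were higher and 4 lower, and without replicate 2 of 30% epiboly 7 and 4.

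Markers of later tissues were mostly too dim to be tested. gata1a, the blood factor, had empty cells on all 4 MZspg arrays, and mylpfa, a fast muscle myosin light chain, on 3 of 4. Of 13 erythroid and endothelial markers on the array 3 were tested, of which cebpa (2.65) and lcp1 (2.63), genes of myeloid cells, rose and stayed called, and urod, a gene of haem synthesis, fell (-1.11), a call lost without replicate 2 of 60% and without either replicate of 30% epiboly (adjusted p up to 0.241). Of 12 muscle markers 3 were tested. actc1a, a cardiac actin gene, had 62.2 and 252 at 60% epiboly, against 10.7 and 12.6 at 30% epiboly (log2 change 2.72, SE 0.542, adjusted p = 0.00426), and unc45b rose by 1.497, a call lost without replicate 2 of either stage (adjusted p up to 0.153). Neither of the 2 tested neuron and glia markers was called. stmn2a, a stathmin of neurons, had 429.9 and 254 at 60% epiboly, against 285 and 147 at 30% epiboly (log2 change 0.66, adjusted p = 0.287), against 33.8 and 43.1 in WT at 60% and 39.8 and 15.3 in WT at 30% epiboly.

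The WT arrays, from the same fit and with the same standard errors, showed fewer calls over the same span. In WT 1013 probe sets were called (13.7%), and by gene 245 were higher (4.69%) and 463 lower (8.87%). The median absolute change was 0.70 in MZspg and 0.53 in WT over all tested probe sets. The 2 changes share no array. Called in the same direction in both genotypes were 794 probe sets, 334 higher and 460 lower. They were 33.0% of the MZspg calls, where 13.7% of all tested probe sets were called in WT in either direction. They were 78.4% of the WT calls, where 32.6% of all tested probe sets were called in MZspg. The part of the shared standard error in this overlap was not tested. Of the 2405 called in MZspg, 2282 had a WT change of the same sign and 123 of the opposite sign. The same counts over all tested probe sets are not given, so no agreement beyond theirs is read from these. A test of the difference itself, the interaction of genotype and stage, called none of the 7375 probe sets (0%), while 638 had an unadjusted p under 0.05, where 368.75 would lie by chance. A larger number of calls in MZspg is therefore no test that any gene changed more there. The WT count also hung on single arrays, between 0 without replicate 1 of 30% epiboly and 1196 without replicate 2 of MZspg at 60% epiboly.

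**Figure D5:**
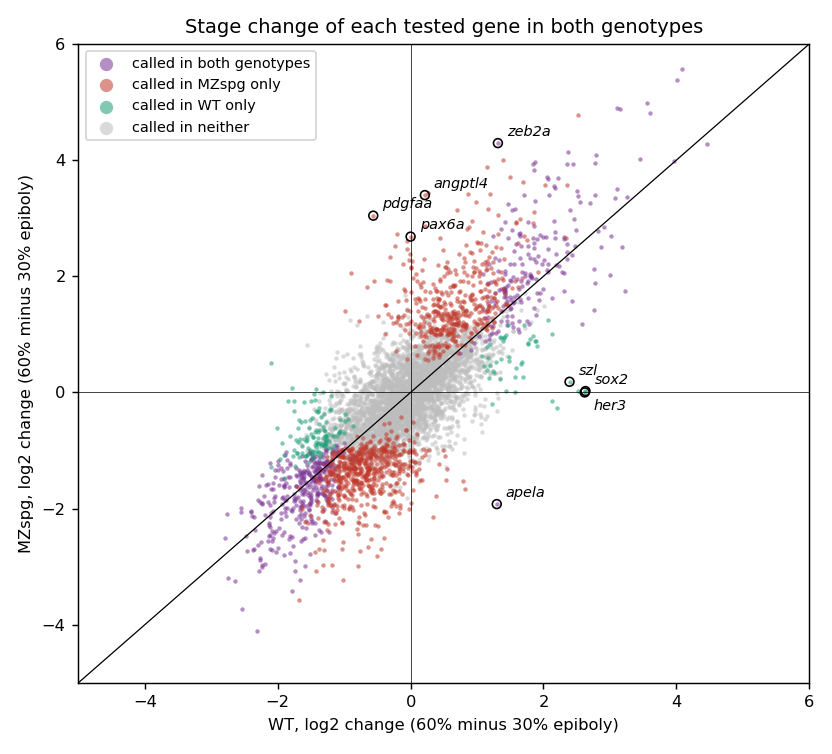
Log2 change between 60% and 30% epiboly of each tested gene in MZspg (vertical axis) against WT (horizontal axis). Purple genes were called in both genotypes, red genes in MZspg, green genes in WT and grey genes in neither, and the diagonal marks equal changes. Labels mark the 5 genes with the smallest interaction p, apela below the diagonal and angptl4, pdgfaa, pax6a and zeb2a above it, and szl, sox2 and her3, which were called in WT and not in MZspg.

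In the lists named here the WT counts were lower than those in MZspg, while the medians lay close together in some and apart in others. Maternal transcripts had 16 lower members in MZspg and 15 in WT, with medians of -1.51 in MZspg and -1.50 in WT. Mesoderm genes had 11 higher members in MZspg and 6 in WT, with medians of 1.59 in MZspg and 1.54 in WT. Enveloping layer genes had 17 higher members in MZspg and 10 in WT, with medians of 1.09 in MZspg and 0.91 in WT. Yolk syncytial layer genes had 12 in MZspg and 5 in WT, with medians of 1.45 in MZspg and 1.02 in WT. Germ plasm genes had 5 lower members in MZspg and 4 in WT, with medians of -1.03 in MZspg and -0.37 in WT. Wnt pathway genes had 8 higher members in MZspg and 4 in WT, with medians of 0.11 in MZspg and 0.59 in WT. With 1 MZspg array left out, this MZspg median ran from 0.17 to 0.44, the highest without replicate 2 of 60% epiboly. Ribosomal protein genes had 29 higher members in MZspg and 3 in WT, with medians of 0.53 in MZspg and 0.32 in WT. These differences between lists were not tested.

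No interaction passed the adjusted threshold by limma with all 8 arrays, and 54 did without replicate 1 of MZspg at 60% epiboly. The genes with the smallest interaction p were apela, angptl4, pdgfaa, pax6a and zeb2a. apela fell in MZspg and was called higher in WT, the single probe set called in opposite directions: its WT signals were 563 and 545 at 60% and 166 and 291 at 30% epiboly (interaction -3.22, SE 0.475, limma adjusted p = 0.101). angptl4, an angiopoietin-like gene, had 168 and 164 at 60% epiboly, against 6.897 and an empty cell at 30% epiboly in MZspg (log2 change 3.398), against 14.6 and 8.16 at 60% and empty cells on both arrays at 30% epiboly in WT (interaction 3.18, SE 0.479, limma adjusted p = 0.101). In WT all 4 signals were dim or empty, so the interaction rests in part on the fill value. angptl4 reached the level of the filter only on the MZspg arrays of 60% epiboly, as did pdgfaa, pax6a and zeb2a. The filter left these genes no direction but higher in MZspg and so favoured a positive interaction, which is no separate support. pdgfaa and zeb2a rose in MZspg by 3.04 and 4.29, with WT changes of -0.56 and 1.31 and an interaction adjusted p of 0.187 in each. pax6a, which rose in MZspg by 2.68, had empty cells on all 4 WT arrays (limma interaction adjusted p = 0.187). Its WT values are all the fill value, so its interaction and their spread rest in part on the fill. Of the list members called in WT and not in MZspg, her3, szl and sox2 are given for their levels and not for the rank of their interaction p. her3, a Hairy-type repressor, was empty on all 4 MZspg arrays and had 125 and 88.3 at 60%, against 7.51 and 11.8 at 30% epiboly, in WT (WT log2 change 2.62, limma interaction adjusted p = 0.187). Its MZspg values are all the fill value, so this interaction too rests in part on the fill. her3 reached the level of the filter only on the WT arrays of 60% epiboly, which left no WT direction but higher. szl, the sizzled inhibitor of chordin proteases, had 83.3 and 84.1 at 60% epiboly, against 76.3 and 69.2 at 30% epiboly in MZspg, and 209 and 245 at 60%, against 35.9 and 35.7 at 30% epiboly, in WT (limma interaction adjusted p = 0.309). The MZspg stages lay close together, and those of WT were far apart. For sox2, whose MZspg cells were mostly empty and filled, the WT change was 2.63 and the limma interaction adjusted p was 0.365.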

How the data were processed

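RNA of whole zebrafish embryos was measured on Affymetrix arrays, 1 array per sample, with 2 arrays per genotype and stage. Per the submitters' processing notes, the deposited values are MAS5 signals, that is, linear intensity per probe set. Their distribution had also been made alike between arrays, as described above. The design text names Genedata Expressionist Analyst as the authors' analysis software. Which step left cells of the deposited table empty is not given in the sources used here.

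From these values, log2(intensity + 9) was computed and fitted in R 4.3.3 with limma 3.58.1, using lmFit and trended eBayes, with 1 mean per genotype and stage over all 8 arrays, and Benjamini-Hochberg adjustment over 7375 probe sets. Probe sets needed a signal of at least 41.03, the 40th percentile, on at least 2 arrays. Empty cells, 1.222% of the tested cells, were filled with 8.345, the 10th percentile, which was decided with the data in view. A group with no signal on either array gets a lower bound of fold against 24.62, the 95th percentile of signals whose duplicate cell was empty. The bound holds for the geometric mean of the other group's 2 signals, not for each array. Control probe sets were left out. Genes were named from the platform annotation where a probe set had 1 symbol (9206 of 12447 probe sets), and the brightest probe set stands for a gene.

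Named genes are the 15 largest called rises and falls, called members of the lists, and the 5 genes with the smallest interaction p. A few members that were not called are given by value. The members and lists were chosen with earlier results of these data known. The code was tested on simulated data. Between the stages, same-numbered arrays did not deviate in the same direction (correlations -0.13 in MZspg and -0.33 in WT), and the fit has no term for the number. A crossed pairing was fitted for MZspg and not for WT, so a pairing of the samples is not settled. At 60% epiboly, replicate 2 of both genotypes had a higher spike-in level and more empty cells than replicate 1. No genome was used, so genes are given by symbol, without coordinates or sequences. The number of arrays limits the precision.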

Additional observations from a re-analysis of the deposited data

Results flagged for a closer look

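The spike-in control probe sets, which entered no comparison as a measurement and served to split the arrays in 2 alternative fits, read differently from array to array. Their geometric mean was 736.4 on replicate 2 and 189.9 on replicate 1 of MZspg at 60% epiboly, against 79.9 and 138.5 on the arrays of MZspg at 30%. Among WT arrays replicate 2 of 60% epiboly also stood high, at 592.1. The labels name no batch. Below, the low spike-in batch means the arrays left without replicate 2 of 60% epiboly in both genotypes.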

How the results depend on the processing

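No named gene that was called changed sign under any alternative run. The MZspg count of 2405 became 1429 with only the 4 MZspg arrays and 688 within the low spike-in batch, and ran from 791 to 2467 with 1 array left out. The WT count of 1013 became 211 with no filter on dim probe sets, 655 with a spike-in term in the fit and 110 within that low batch, and ran from 0 to 1196 with 1 array left out (limma, 1262 at an unadjusted p under 0.05 where it was 0, without WT replicate 1 of 30% epiboly). The interaction count of 0 ran to 54, without MZspg replicate 1 of 60% epiboly. Fewer arrays enter these smaller fits, and otherwise the cause was not tested. With the replicate number as a replicate block, 2203 probe sets were called in MZspg, 825 in WT and 0 for the interaction. The deviations of same-numbered MZspg arrays had a weak negative correlation (-0.13), and a crossed pairing, chosen after seeing the data, gave 2218. The other alternatives (pseudocounts of 1 and 32, a stricter filter, a lower fill value, complete probe sets, centred arrays and eBayes without the trend) moved the MZspg count to between 1686 and 2510. The count of 1686 came with the stricter filter, under which 5168 probe sets were tested. A spike-in term gave 1701 calls in MZspg. The share of higher calls, 42.5% as reported, was 47.7% with centred arrays, 49.15% with the spike-in term, 50.7% within the low spike-in batch, and between 37.9% and 51.7% with 1 array left out, the highest without MZspg replicate 2 of 60% epiboly. Of the settings tried for single genes, 5391 values kept their side of the threshold, 1112 lost it and 17 gained it. Duplicates limit all counts, and signals near the empty cells have no reliable order.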
